A study of Mus musculus with 6 samples.

Results

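The genes described here encode the receptors that carry proteins and RNA through the nuclear envelope and the nucleoporins that build the channel they use. Members were all symbols beginning with Kpna, Kpnb1, Ipo, Xpo, Tnpo, Nup, Nxf or Nxt followed by a number (Xpot included) that occurred in every library, which gave 51 of 21786 symbols. Their mRNA was measured by sequencing polyadenylated RNA of whole mouse testes. The 3 Stra8-deficient libraries (genotype Stra8 -/-) came from enlarged testes of males aged 1 year. The 3 wild-type libraries (Stra8 +/+), also called controls as the others are called mutants, came from normal testes of males aged 2 to 4 months. All 6 males had a C57BL/6 background, and the comparison asked how mRNA levels in the enlarged testes, described in the labels as mainly cells like type A spermatogonia, differ from normal adult testis.

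Nuclear transport works through a gradient of the small GTPase Ran. Import receptors of the importin beta family bind cargo in the cytoplasm, directly or through an importin alpha adaptor, and release it when they meet Ran-GTP in the nucleus, while exportins bind cargo together with Ran-GTP and release it outside. Bulk mRNA leaves by another route, on the Nxf1 and Nxt1 heterodimer. The pore itself is built of a Y-shaped scaffold on both faces, an inner ring, membrane-anchored nucleoporins and nucleoporins with phenylalanine-glycine (FG) repeats that line the channel, the cytoplasmic filaments and the nuclear basket. In the testis, spermatogenesis is known to switch between importin alpha paralogs, and several members have paralogs used mainly in germ cells.

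Reads in genes numbered 6733128 to 12425689 per library. Levels are CPM, reads of a gene scaled by the library size times its trimmed mean of M values (TMM) factor. These factors were 1.21 to 1.27 in mutant and 0.796 to 0.813 in control libraries. Levels therefore do not share a common total. All tested genes together summed to 787031 to 824000 CPM in mutants and to 1.23e+06 to 1.26e+06 CPM in controls. Differences are log2 fold changes of mutant over control libraries, each followed by ± its approximate SE. Stra8 itself was read 211, 249 and 270 times in the Stra8-deficient and 120, 132 and 93 times in the wild-type libraries, and since the counts sum all exons and the deleted part of the allele is not given in the sources used here, it does not check the labels. The spread was unequal: the median coefficient of variation of the members was 23.2% over the Stra8-deficient and 5.37% over the wild-type libraries, against 28.3% and 9.72% for all genes tested. Markers of several cell types differed between genotypes, while those of others were mostly not called. All 7 spermatocyte and all 9 spermatid markers were called lower, with summed levels of 36.9 to 41.3 against 8330 to 9345 CPM and of 2.10 to 10.0 against 21203 to 24456 CPM, and the spermatid markers Catsper1 and Spata3 were at 0 reads in the Stra8-deficient libraries. Of 8 markers of undifferentiated spermatogonia 7 were called higher and 1 lower (log2 fold change -2.70), and the 8 summed to 1121 to 1853 against 44.9 to 56.7 CPM. Of 6 macrophage markers 5 were higher (268 to 829 against 79.6 to 89.2 CPM), and 6 of 7 Sertoli markers were lower (88.9 to 671 against 1599 to 1791 CPM). The 6 Leydig markers were not called and summed to 333, 18.4 and 2764 CPM in the 3 Stra8-deficient libraries while the wild-type sums were 763 to 1246 CPM. Of 4 peritubular and smooth muscle markers 1 was called lower, and of 3 endothelial markers 1 was called higher. In the list for T and B cells and in that for red blood cells 1 gene each could be tested, and it was called lower. The part of these cell types in the results below was not tested, and in whole testis fewer cells of a type and less RNA per cell cannot be told apart.

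Of the 51 members 49 had enough reads to be tested, and 23 were higher and 19 lower in Stra8-deficient testes, with 7 not called (quasi-likelihood F test in edgeR; p-values adjusted by the Benjamini-Hochberg method over 15018 genes, threshold 0.05). That is 46.9% higher and 38.8% lower, beside 39.0% and 36.7% of all genes, and 85.7% called in all beside 75.8%. The median log2 fold change of the members was 0.13, beside 0.11 for all genes, and the quartiles were -1.71 and 1.33, beside -1.69 and 1.48. With library size alone, without TMM factors, the median of all genes moved to 0.73. The split of the members then moved to 27 higher and 12 lower, beside 7550 higher and 4326 lower of all 15018 genes. Members thus went both ways in about the proportions of the transcriptome, and what follows is which gene of each functional group went which way. Of the 49, 24 had every Stra8-deficient library above every wild-type one, beside 40.7% of all genes, and 19 the reverse, beside 39.4%; either held for 80.2% of all genes. At a called change of at least 2-fold, 17 were higher and 15 lower, beside 32.7% and 32.0% of all genes. Together the 51 members took between 0.806% and 1.00% of mutant reads and between 0.823% and 0.839% of control reads, ranges that overlap. On the TMM scale used for the fold changes, their summed level was lower in every mutant than in any control. It was 6663 to 8142 CPM in mutants and 10135 to 10534 CPM in controls. The sum of all tested genes was also lower in mutants on that scale, as given above.

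**Figure D1:**
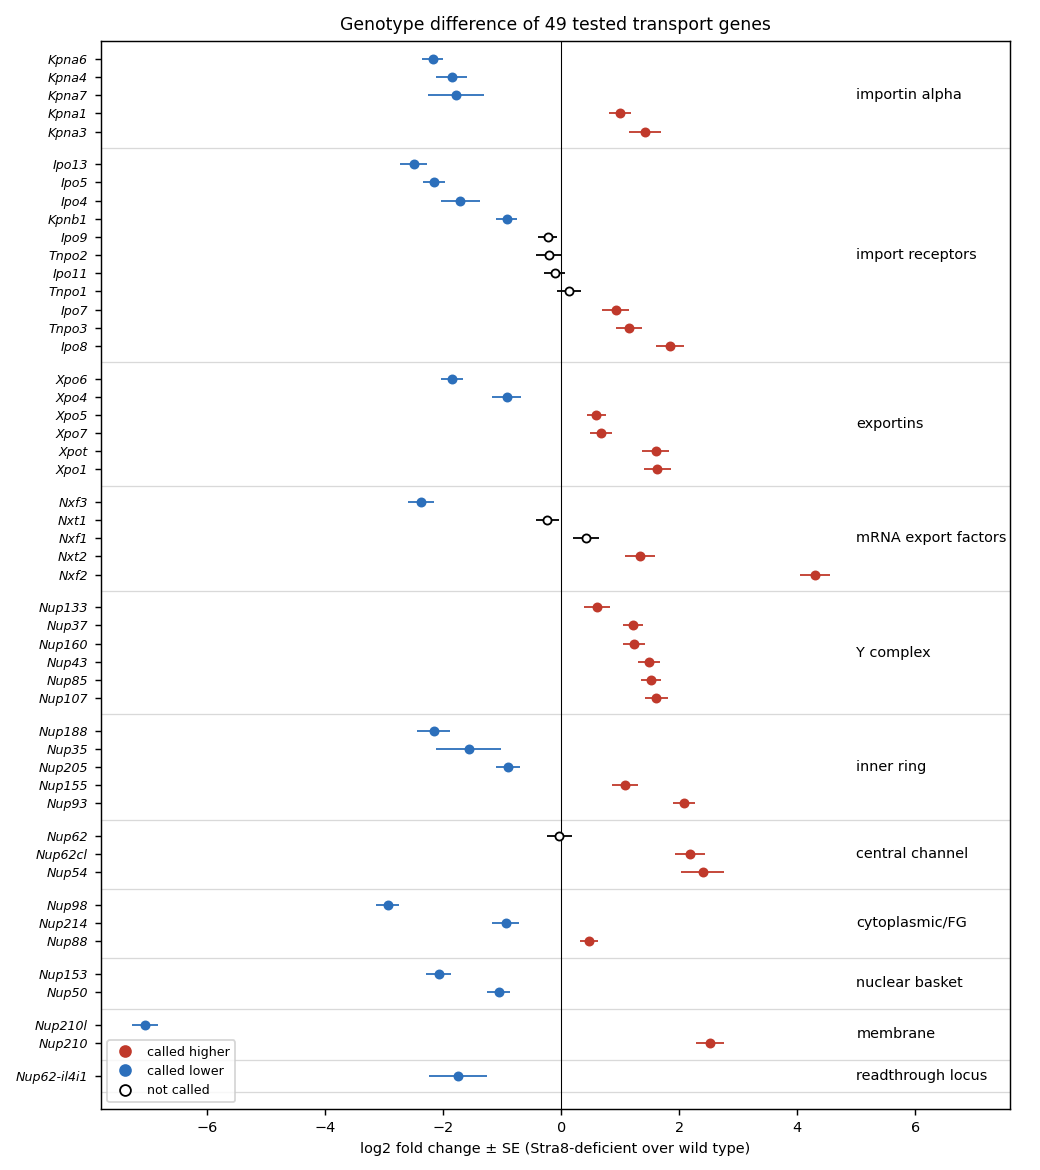
Log2 fold change (x axis, Stra8-deficient over wild type, with bars of ± 1 SE) of each of the 49 tested members, grouped by role; filled red points were called higher, filled blue points lower and open points were not called. All 6 Y complex genes lie to the right of 0 and both basket genes to the left, Nup210l lies farthest left at -7.05 and Nxf2 farthest right at 4.31.

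Nxf2 showed the highest rise of any member. It is an X-linked germ cell paralog of Nxf1, the general mRNA export receptor. Its level was 394, 464 and 621 CPM in the Stra8-deficient libraries and 28.7, 26.1 and 19.8 CPM in the wild-type libraries. Every Stra8-deficient library lay far above every wild-type one, and the gene rose 19.8-fold (log2 fold change 4.31 ± 0.26; edgeR, adjusted p = 6.24e-07). Per kilobase of transcript, Nxf2 ranked first of 50 members in Stra8-deficient testes with 206 ± 48.5 CPM per kb (SD, n = 3), and its lowest library (165) lay above the highest library of the next gene, Nup88 (118). In wild type it stood at 10.4 ± 1.92 CPM per kb.

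The stretch before the start site of Nxf2 is shown because it holds an unusual run of a single motif. It is printed 5′ to 3′ with every CACGTG, the palindromic E-box hexamer, in capitals, and lies at chrX:134964755-134965004 on the minus strand of GRCm38.p6 (RefSeq), the 250 bases before an annotated start site.
Nxf2 promoter: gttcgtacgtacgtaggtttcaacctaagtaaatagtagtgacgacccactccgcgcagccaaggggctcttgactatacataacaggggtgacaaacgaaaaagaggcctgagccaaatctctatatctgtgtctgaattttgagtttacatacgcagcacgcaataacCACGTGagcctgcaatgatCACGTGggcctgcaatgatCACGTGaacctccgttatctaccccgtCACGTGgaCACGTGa
The 5 sites begin 80, 61, 42, 15 and 7 bases before the start site. Over all 32851 RefSeq promoter windows of 300 bases, 7.15% held at least 1 CACGTG and 5 windows, of 3 genes, held at least 5. Of the other members, Nup188, which was called lower, and Tnpo2, which was not called, held at least 2. A second annotated start site of Nxf2 had no CACGTG in its window. The count was made after the sequence was seen, and a match of letters is a description, not a bound site.

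The other mRNA export factors went different ways. Nxf1 itself stood at 223, 335 and 197 CPM in Stra8-deficient and 179, 195 and 192 CPM in wild-type libraries. The libraries of the genotypes did not overlap, but the difference was not called (log2 fold change 0.41 ± 0.22; edgeR, adjusted p = 0.112). It was called higher when scaled by library size alone (1.03) or by upper quartiles (0.69), and without the third Stra8-deficient library (0.56). Nxf3, an X-linked paralog known to work with the exportin Xpo1, had 13.5, 21.1 and 19.8 CPM against 96.2, 101 and 85.5 CPM in wild type. It fell in every library and was 5.20-fold lower (log2 fold change -2.38 ± 0.22; edgeR, adjusted p = 1.01e-05). Nxf7, the remaining X-linked paralog, had 3, 2 and 2 reads against 5, 5 and 3 and was too low to test.

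The small partners of these receptors also differed from each other. Nxt1, which pairs with Nxf1, stood at 63.4, 69.2 and 95.4 CPM in Stra8-deficient and 96.0, 88.4 and 83.8 CPM in wild-type libraries, groups that overlapped and were not called (-0.23 ± 0.19; edgeR, adjusted p = 0.296). Without the third Stra8-deficient library Nxt1 was called lower (-0.44; edgeR, adjusted p = 0.0319), and with library size alone its value was above 0 (0.38) and not called. The X-linked paralog Nxt2 had 14.5, 21.6 and 17.1 CPM against 7.34, 6.92 and 6.79 CPM. Each Stra8-deficient library was above each wild-type one, and Nxt2 was 2.52-fold higher (1.33 ± 0.26; edgeR, adjusted p = 0.00123).

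Ratios of paralogs within a library do not depend on how libraries are scaled to each other. The log2 ratio of Nxf2 to Nxf1 reads averaged 0.98 ± 0.61 among mutants and -2.93 ± 0.32 among controls (SD, n = 3 each), so reads of the 2 genes were most numerous for Nxf2 in the former and for Nxf1 in the latter. The ratio of Nxf3 to Nxf1 was -3.78 ± 0.41 against -1.001 ± 0.144, and that of Nxt2 to Nxt1 was -2.09 ± 0.40 against -3.64 ± 0.05. Of 11 paralog ratios computed, 9 did not overlap between genotypes (exact two-sided permutation test, p = 0.1, the smallest that 3 against 3 libraries allow; 0.122 adjusted over the 11). For comparison, the levels of 80.2% of all genes tested did not overlap, so this count does not set the pairs apart. Among the 9 ratios was that of Nxf7 to Nxf1, which rests on 2 to 5 Nxf7 reads per library, too few for Nxf7 itself to be tested. The 2 that overlapped were Tnpo2 to Tnpo1 (p = 0.4, exact permutation) and Kpna2 to Kpna1 (p = 0.2, exact permutation).

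**Figure D2:**
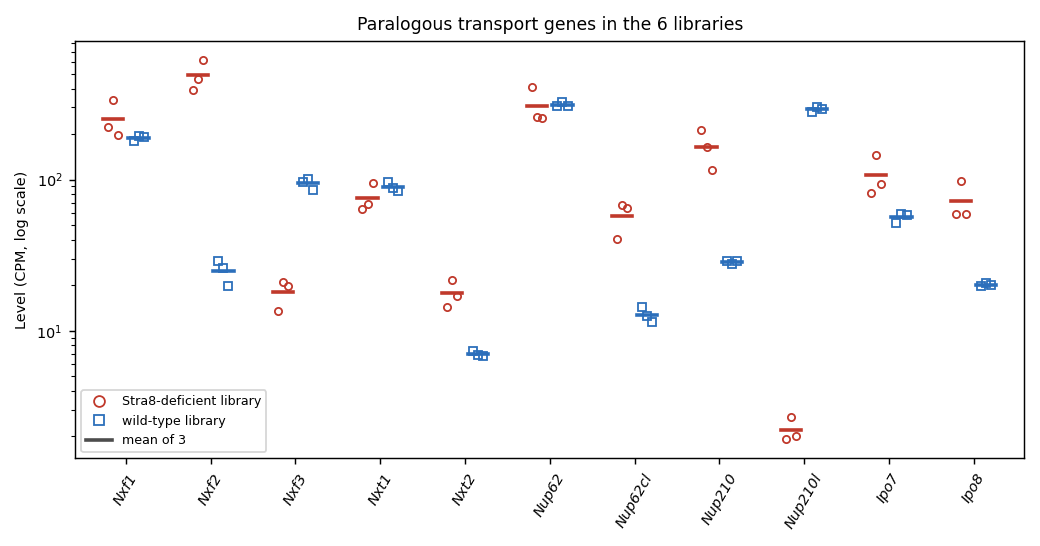
Level in CPM (y axis, log scale) of paralogous members in each library; red circles are the 3 Stra8-deficient and blue squares the 3 wild-type libraries, and short bars are means of 3. Nxf2 and Nup210 are high in red where Nxf3 and Nup210l are high in blue, and the points of Nxt1 and of Nup62 overlap.

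The importin alpha adaptors, which recognise the classical nuclear localisation signal, changed in composition. Kpna1 and Kpna3 rose, and Kpna4, Kpna6 and Kpna7 fell, so all 5 tested members were called, beside 75.8% of all genes. Kpna6 had 121, 115 and 94.6 CPM in Stra8-deficient and 488, 527 and 476 CPM in wild-type libraries. It was 4.52-fold lower, with no overlap (-2.18 ± 0.18; edgeR, adjusted p = 4.58e-06). Kpna4 had 63.0, 110 and 54.8 CPM against 274, 280 and 266 CPM and was 3.61-fold lower (-1.85 ± 0.26; edgeR, adjusted p = 1.74e-04), with the second Stra8-deficient library the highest of its group.

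In the other direction, Kpna3 had 114, 232 and 130 CPM against 53.2, 62.4 and 62.7 CPM and was 2.67-fold higher (1.42 ± 0.27; edgeR, adjusted p = 0.00118). Here too the second Stra8-deficient library stood well above the other two. Kpna1 had 141, 198 and 167 CPM against 79.0, 89.5 and 85.1 CPM, 1.99-fold higher (1.00 ± 0.18; edgeR, adjusted p = 7.93e-04). Kpna7, an importin alpha known from oocytes and early embryos, was rare in both genotypes, with 5, 18 and 24 against 23, 38 and 24 reads (-1.78 ± 0.48; edgeR, adjusted p = 0.00747).

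As a share of all importin alpha reads in a library, Kpna6 held 54.0 ± 0.72% in wild type and 22.0 ± 5.08% in Stra8-deficient testes (SD, n = 3 each). Kpna4 held 29.7 ± 0.75% and 14.4 ± 2.23%. Kpna1 went from 9.18 ± 0.38% to 33.1 ± 3.64% and Kpna3 from 6.46 ± 0.55% to 30.1 ± 4.82%. None of these 4 shares overlapped between genotypes (exact two-sided permutation test, p = 0.1 each, the smallest possible; 0.12 adjusted over 6 genes). Beside this, the levels of 80.2% of all genes tested did not overlap. The reads counted for the adaptors together made up 0.0558%, 0.0809% and 0.0543% of mutant reads. In controls they made up 0.0732%, 0.0768% and 0.0727%, so mutants lay on both sides of the controls. On the TMM scale used for the fold changes, their summed level was lower in every mutant than in any control. It was 440, 657 and 449 CPM in mutants and 901, 965 and 895 CPM in controls.

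**Figure D3:**
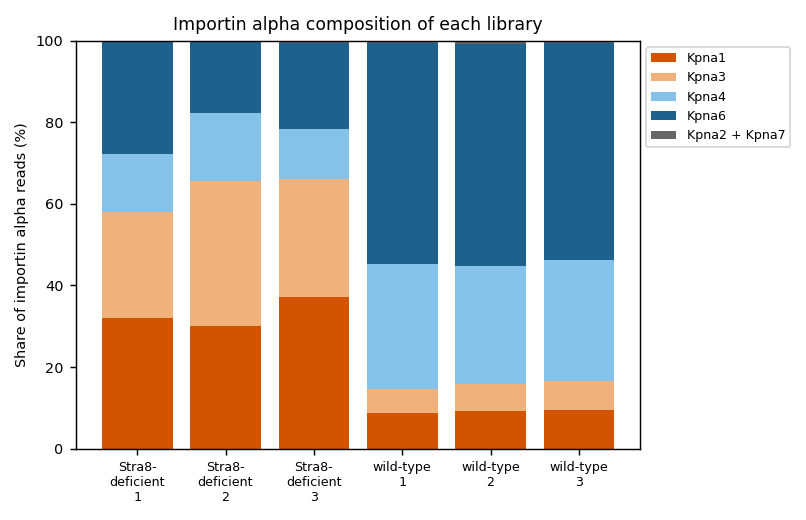
Share of importin alpha reads (y axis, percent) held by each gene in each of the 6 libraries, as stacked bars. Kpna1 and Kpna3 (orange shades) take the lower and larger part of the 3 Stra8-deficient bars, and Kpna4 and Kpna6 (blue shades) take most of the 3 wild-type bars.

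Kpna2, the importin alpha best known from dividing cells, could not be judged. It had 6, 7 and 21 reads in the Stra8-deficient and 12, 9 and 2 in the wild-type libraries. In the GENCODE M21 annotation 93.6% of the 36-base words of its transcript also occur in transcripts of 13 other genes, and how the authors treated reads with several matches is not given in the sources used here, so the shares above hold for the reads that were counted. Nup35, an inner ring gene discussed below, has 86.3% of its words shared with 1 other gene. Ipo4 shares 59.7%, with an overlapping annotated locus on the same strand, Nup54 shares 26.5% and Xpot 20.5%. Every other member matched to the annotation shared under 20% of its words. Among the 44 tested members under that value 21 were higher and 16 lower.

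Importin beta family import receptors were called in 7 of 11 cases (63.6%, below the 75.8% of all genes), 3 higher and 4 lower, beside 39.0% and 36.7% of all genes. The lower ones included the receptors with the highest levels in normal testis. Ipo5, which imports ribosomal proteins and histones, ranked first per kilobase in wild type (212 ± 24.2 CPM per kb; SD, n = 3), above the highest library of the next gene, Ipo4 (164 ± 3.46). Its level was 210, 236 and 199 CPM in Stra8-deficient and 1008, 1036 and 834 CPM in wild-type libraries, a 4.46-fold fall without overlap (-2.16 ± 0.18; edgeR, adjusted p = 5.90e-06). Ipo13, a receptor that works in both directions, fell more. It had 82.8, 49.1 and 54.4 CPM against 343, 353 and 355 CPM and was 5.64-fold lower (-2.50 ± 0.23; edgeR, adjusted p = 9.84e-06).

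Ipo4, another carrier of histones, varied more among Stra8-deficient testes than most members. It had 305, 111 and 162 CPM there, against 630, 644 and 617 CPM in wild type, and was 3.27-fold lower (-1.71 ± 0.33; edgeR, adjusted p = 0.00127). Kpnb1, the importin beta that carries importin alpha with its cargo, had 289, 266 and 218 CPM against 503, 491 and 473 CPM and was 1.90-fold lower (-0.92 ± 0.17; edgeR, adjusted p = 0.00102). The call of Kpnb1 was lost with library size alone (-0.30). The other 3 lower calls held under each scaling tried.

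Ipo8, Tnpo3 and Ipo7 rose. Ipo8 had 59.4, 98.1 and 59.1 CPM in Stra8-deficient and 19.7, 20.8 and 19.99 CPM in wild-type libraries, 3.58-fold higher (1.84 ± 0.24; edgeR, adjusted p = 1.05e-04). Its close paralog Ipo7, which carries ribosomal proteins and signalling proteins, had 82.1, 146 and 93.4 CPM against 51.5, 59.3 and 58.5 CPM and was 1.90-fold higher (0.92 ± 0.23; edgeR, adjusted p = 0.00544). For both, as for Kpna3, the second Stra8-deficient library was the highest. The log2 ratio of Ipo8 to Ipo7 averaged -0.57 ± 0.10 among mutants and -1.48 ± 0.08 among controls (SD, n = 3 each), so the 2 genes rose unequally. Tnpo3, the receptor of the serine- and arginine-rich splicing factors, had 232, 363 and 219 CPM against 126, 122 and 121 CPM and was 2.21-fold higher (1.14 ± 0.22; edgeR, adjusted p = 0.00117).

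Tnpo1 and Tnpo2, receptors of RNA-binding proteins, and Ipo9 and Ipo11 were not called, with log2 fold changes from -0.23 to 0.13 (edgeR, adjusted p from 0.214 to 0.597). Tnpo1 had 38.0, 52.9 and 39.5 CPM in Stra8-deficient and 41.2, 37.4 and 40.4 CPM in wild-type libraries, and Tnpo2 had 212, 145 and 121 against 195, 177 and 180 CPM. The libraries of the genotypes overlapped for both, and also for Ipo11. For Ipo9 every Stra8-deficient library (107, 90.1 and 88.9 CPM) lay below every wild-type one (119, 108 and 109 CPM). The signs of these small differences depended on the scaling: with library size alone all 4 were above 0, and Ipo11 (0.50) and Tnpo1 (0.75) were then called higher. Tnpo2 without the first Stra8-deficient library was called lower at -0.50, and so was Ipo9 at -0.35.

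Exportins were called in 6 of 6 cases, 4 higher and 2 lower, beside 75.8% of all genes called, 39.0% higher and 36.7% lower. Xpo1, the main exportin for proteins with leucine-rich export signals, had 391, 568 and 343 CPM in Stra8-deficient and 127, 151 and 142 CPM in wild-type libraries. The groups were far apart and the gene was 3.09-fold higher (1.63 ± 0.22; edgeR, adjusted p = 1.33e-04). Xpot, the tRNA exportin, rose by nearly as much, with 68.6, 85.7 and 52.0 CPM against 26.5, 20.05 and 21.5 CPM (1.60 ± 0.23; edgeR, adjusted p = 2.13e-04). Xpo5, the exportin of microRNA precursors, had 197, 210 and 186 against 131, 138 and 124 CPM, a rise of 1.51-fold (0.60 ± 0.15; edgeR, adjusted p = 0.00617), and Xpo7 rose 1.59-fold (0.67 ± 0.19; edgeR, adjusted p = 0.00980). Xpo7 was not called without the third wild-type library (0.61; adjusted p = 0.0557).

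The 2 lower exportins were Xpo6 and Xpo4. Xpo6, which exports actin with profilin, had 183, 169 and 131 CPM in Stra8-deficient and 576, 554 and 606 CPM in wild-type libraries. It ranked first among exportins per kilobase in wild type (127 ± 5.70 CPM per kb; SD, n = 3) and was 3.59-fold lower in Stra8-deficient testes (-1.85 ± 0.19; edgeR, adjusted p = 2.00e-05), where Xpo1 ranked first among them (72.3 ± 19.7 CPM per kb). Xpo4, known to export a translation factor, had 24.6, 45.4 and 43.7 CPM against 73.4, 72.7 and 69.9 CPM (-0.92 ± 0.24; edgeR, adjusted p = 0.00683). Its call was lost with library size alone (-0.31). The reads of the 6 exportins together made up between 0.108% and 0.157% of mutant and between 0.0836% and 0.0866% of control reads. On the TMM scale used for the fold changes, their summed levels overlapped. The sums were 1061, 1274 and 892 CPM in mutants and 1047, 1051 and 1067 CPM in controls.

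Among nucleoporins 12 of 22 were higher (54.5%) and 9 lower (40.9%), beside 39.0% and 36.7% of all genes. They are described by place in the pore, in groups of at most 6 genes, and differences between these groups were not tested. The Y complex is the scaffold that coats both faces of the pore, and all 6 of its members were higher, beside 39.0% of all genes; 5 of these calls held under each setting tried. Nup107, which gives the complex its other name, had 181, 275 and 216 CPM in Stra8-deficient and 75.7, 68.6 and 76.3 CPM in wild-type libraries, 3.05-fold higher (1.61 ± 0.20; edgeR, adjusted p = 6.42e-05). Nup85 had 128, 157 and 131 against 51.1, 48.99 and 44.2 CPM (1.52 ± 0.17), and Nup43 had 68.7, 85.2 and 88.8 against 27.6, 26.97 and 32.3 CPM (1.48 ± 0.19). Nup160 (1.24 ± 0.18) and Nup37 (1.21 ± 0.17) lay close to them. These 5 log2 fold changes spanned 1.21 to 1.61.

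Nup133, a further Y complex member, rose least. It had 277, 161 and 181 CPM against 128, 138 and 143 CPM, so that the first Stra8-deficient library stood above the other two (0.60 ± 0.22; edgeR, adjusted p = 0.0330). Its call was lost without that library (0.30; adjusted p = 0.0600), without any 1 of the wild-type libraries, with RLE factors and in DESeq2. Of the complex members whose symbols lie outside the rule, Seh1l (1.82 ± 0.17) and Sec13 (1.25 ± 0.18) were also higher, while Ahctf1, which encodes the chromatin-binding component ELYS, was lower (-0.55 ± 0.18; edgeR, adjusted p = 0.0206). These 3 were named after their values were seen. The summed level of the 6 members lay between 877 and 966 CPM in mutants and between 396 and 399 CPM in controls.

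Nup98 stood against them. Its transcript encodes a precursor that is cleaved into the FG nucleoporin Nup98 and the Y complex subunit Nup96. It had 94.9, 96.0 and 71.7 CPM in Stra8-deficient and 646, 708 and 658 CPM in wild-type libraries. This was a fall of 7.66-fold without overlap (-2.94 ± 0.19; edgeR, adjusted p = 1.15e-06), so the gene of 1 Y complex subunit fell while those of its 6 partners on the list rose. The counts do not separate transcripts that encode Nup98 alone from those that also encode Nup96.

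The promoters of Nup107 and Nup133, 2 risers of the complex, and of Nup98, which fell, are printed as examples, picked after their motifs were seen, and they show no general difference between risers and fallers. Each is the 250 bases before an annotated start site, 5′ to 3′, from the minus strand of GRCm38.p6 (RefSeq), at chr10:117792706-117792955 for Nup107, chr8:123949266-123949515 for Nup133 and chr7:102210167-102210416 for Nup98. Capitals mark motif matches on either strand.
Nup107 promoter: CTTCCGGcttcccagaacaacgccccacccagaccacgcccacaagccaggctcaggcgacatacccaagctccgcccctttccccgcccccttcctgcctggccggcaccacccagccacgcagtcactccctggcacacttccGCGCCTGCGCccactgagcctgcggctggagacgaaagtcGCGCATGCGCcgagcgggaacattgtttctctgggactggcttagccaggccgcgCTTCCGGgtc
Nup133 promoter: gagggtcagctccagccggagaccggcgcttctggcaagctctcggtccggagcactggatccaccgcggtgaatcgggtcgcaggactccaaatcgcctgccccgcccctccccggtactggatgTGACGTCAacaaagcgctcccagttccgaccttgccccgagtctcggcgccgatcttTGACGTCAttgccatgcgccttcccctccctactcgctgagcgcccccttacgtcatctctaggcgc
Nup98 promoter: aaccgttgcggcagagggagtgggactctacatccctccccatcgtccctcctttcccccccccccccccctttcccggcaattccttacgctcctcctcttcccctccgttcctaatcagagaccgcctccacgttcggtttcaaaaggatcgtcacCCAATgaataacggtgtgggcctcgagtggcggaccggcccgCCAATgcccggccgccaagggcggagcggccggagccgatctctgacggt
In Nup107 the capitals are 2 matches to the NRF1 motif, found in 4.60% of all windows, and 2 to the ETS motif CCGGAAG, found in 8.86%. Nup133 has 2 copies of the cyclic AMP response element TGACGTCA, found in 1.79% of windows, and Nup98 has 2 CCAAT boxes, found in 37.4%. The 6 motifs searched were these 4, CACGTG and the E2F motif TTTNNCGC (5.17% of windows). Of 40 members with a promoter window 22 held CCAAT, 8 CACGTG, 8 the E2F, 7 the ETS, 6 the NRF1 and 2 the TGACGTCA motif. No motif in capitals is shared by the printed Nup107 and Nup133 promoters. A CCAAT box also occurs before both listed starts of Nup37, which rose, while the 250 bases before the Nup160 start and before another Nup98 start hold none of the 6 motifs.

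The inner ring, which holds the central channel and links it to the membrane, split. Nup93 was the highest riser of the scaffold, with 251, 354 and 281 CPM in Stra8-deficient and 70.4, 71.6 and 67.3 CPM in wild-type libraries, 4.23-fold higher (2.08 ± 0.19; edgeR, adjusted p = 8.59e-06). Nup155 had 185, 297 and 194 against 111, 115 and 93.0 CPM (1.08 ± 0.22; edgeR, adjusted p = 0.00169). Nup188 and Nup205 are related large proteins that each bind Nup93, and both fell. Nup188 had 222, 122 and 114 CPM against 660, 643 and 745 CPM, 4.48-fold lower (-2.16 ± 0.28; edgeR, adjusted p = 8.66e-05).

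Nup205 had 458, 619 and 398 CPM in Stra8-deficient and 935, 930 and 898 CPM in wild-type libraries (-0.91 ± 0.20; edgeR, adjusted p = 0.00282), and its call was lost with library size alone (-0.29). Nup35 was called lower (-1.57 ± 0.55; edgeR, adjusted p = 0.0274) on 6, 14 and 8 against 23, 18 and 6 reads, groups that overlapped, with most of its sequence shared with another gene as given above. Its call was also lost when scaled by library size (-0.96) or by upper quartiles (-1.29), and without the first (-1.44) or the third (-1.32) Stra8-deficient or the first (-1.18) or second (-1.54) wild-type library. The 5 inner ring genes together held between 0.120% and 0.171% of mutant and between 0.140% and 0.147% of control reads. On the TMM scale, they summed to 988 to 1393 CPM in mutants and to 1763 to 1804 CPM in controls.

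Of the 3 members assigned to the central channel, Nup62 was not called while Nup54 and Nup62cl rose. Nupl1 (Nup58), a pore protein outside the rule, was not called (0.38 ± 0.19; edgeR, adjusted p = 0.0929). Nup62 had 407, 258 and 254 CPM in Stra8-deficient and 305, 326 and 309 CPM in wild-type libraries. The first Stra8-deficient library lay above and the other two below every wild-type library (-0.03 ± 0.22; edgeR, adjusted p = 0.901). Without that first library it was called lower (-0.32), and with library size alone it was called higher (0.59), so no direction is given. Nup54, a partner of Nup62 in the channel, had 14.8, 35.2 and 28.5 against 5.15, 5.65 and 4.04 CPM, 5.26-fold higher (2.39 ± 0.36; edgeR, adjusted p = 2.42e-04). Nup62cl, an X-linked gene similar to the C-terminal part of Nup62, had 40.5, 67.6 and 64.9 against 14.4, 12.4 and 11.4 CPM, 4.53-fold higher (2.18 ± 0.25; edgeR, adjusted p = 4.63e-05). The log2 ratio of Nup62cl to Nup62 averaged -2.41 ± 0.80 among mutants and -4.61 ± 0.19 among controls (SD, n = 3 each).

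The symbol Nup62-il4i1 denotes a locus that overlaps Nup62 and Il4i1, which encodes an amino acid oxidase. It had 4.32, 3.05 and 13.2 CPM in Stra8-deficient and 24.5, 23.9 and 21.5 CPM in wild-type libraries (-1.74 ± 0.49; edgeR, adjusted p = 0.00963). In it, the third Stra8-deficient library stood above the other two and its file was counted on another gene list; without it the value was -2.67 (edgeR, adjusted p = 5.00e-05). The call was lost with library size alone (-1.14; edgeR, adjusted p = 0.0538). Reads of overlapping loci such as this and Nup62 cannot be told apart where they share exons.

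The 5 members assigned to the basket or to the cytoplasmic and FG group were lower except Nup88. Other proteins of these regions outside the rule went both ways. Gle1 (1.33 ± 0.16), Rae1 (0.90 ± 0.18), Aaas (1.90 ± 0.18) and Ranbp2 (1.18 ± 0.22, counted below in the Ran cycle) were higher. Nupl2 (-3.48 ± 0.25) was lower. All of these but Nupl2 were named after their values were seen. Both basket genes found by the symbol rule fell, beside 36.7% of all genes called lower, whereas Tpr, the long coiled-coil protein of the basket, whose symbol lies outside the rule, was higher (0.94 ± 0.20; edgeR, adjusted p = 0.00226). Nup153, which anchors the basket, had 180, 188 and 120 CPM in Stra8-deficient and 669, 707 and 681 CPM in wild-type libraries, 4.22-fold lower (-2.08 ± 0.21; edgeR, adjusted p = 2.04e-05). Nup50, a basket protein that binds importin alpha, had 98.9, 67.0 and 106 against 188, 194 and 185 CPM, 2.09-fold lower (-1.06 ± 0.20; edgeR, adjusted p = 0.00106), a call lost with library size alone (-0.44). On the cytoplasmic side Nup214 had 225, 142 and 132 against 334, 306 and 318 CPM (-0.94 ± 0.23; edgeR, adjusted p = 0.00411), also lost with library size alone (-0.32).

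Nup88, the partner of Nup214, was the steadiest member, with 285, 289 and 286 CPM in Stra8-deficient and 208, 209 and 205 CPM in wild-type libraries. Its groups lay apart by more than the spread within either, but by 1.38-fold only (0.47 ± 0.15; edgeR, adjusted p = 0.0178). The call was lost with RLE factors (0.35) and without any 1 of the wild-type libraries (0.45 to 0.46).

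**Figure D4:**
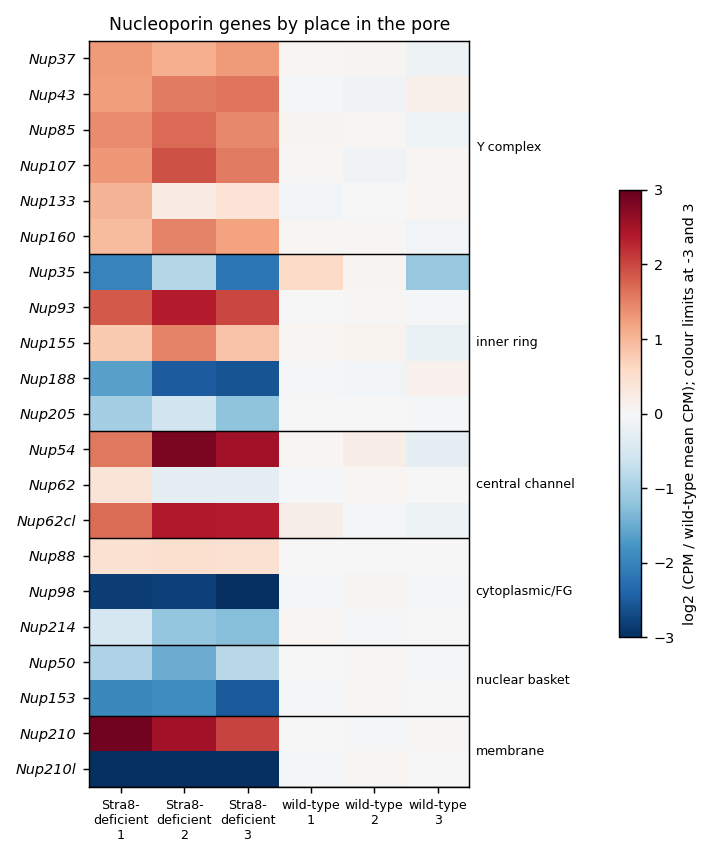
Level of each nucleoporin gene in each library as log2 of its CPM over the wild-type mean (colour; red above, blue below the wild-type mean, colours limited at -3 and 3), with rows grouped by place in the pore and the 3 Stra8-deficient libraries in the left columns. The 6 Y complex rows are red in all 3 Stra8-deficient columns, both basket rows are blue, and Nup210 and Nup210l take opposite colours.

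The pair of membrane nucleoporins moved in opposite directions and showed the widest difference among paralogs. Nup210, a pore protein with a single membrane span, had 213, 164 and 116 CPM in Stra8-deficient and 28.7, 27.8 and 29.0 CPM in wild-type libraries, 5.76-fold higher (2.53 ± 0.24; edgeR, adjusted p = 1.22e-05). Nup210l, its paralog expressed in testis, had 1.91, 2.67 and 2.01 CPM against 280, 301 and 292 CPM. This came from 19, 28 and 30 reads against 1796, 2134 and 1594 and was a 132-fold fall (-7.05 ± 0.22; edgeR, adjusted p = 2.71e-08). The log2 ratio of Nup210l to Nup210 reads averaged -6.14 ± 0.51 among mutants and 3.35 ± 0.08 among controls (SD, n = 3 each). All 3 wild-type libraries thus held more Nup210l than Nup210 reads, and all 3 Stra8-deficient libraries the reverse.

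The members on the X chromosome are Nxf2, Nxf3, Nxf7, Nxt2 and Nup62cl. Of the 4 tested, 3 were higher and Nxf3 was lower, beside 39.0% and 36.7% of all genes. They took between 0.0587% and 0.0874% of mutant reads, most of them from Nxf2, but between 0.0101% and 0.0120% of control reads.

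Genes of the same pathway outside the symbol rule were examined from a list of 38, of which 37 were in every file and 35 could be tested. Of these 19 were higher (54.3%) and 12 lower (34.3%), beside 39.0% and 36.7% of all genes, shares that also stand beside the counts that follow. In the Ran cycle 4 of 8 tested genes were higher and 3 lower, among other pore proteins 7 of 11 and 3, and among mRNA export partners 6 of 12 and 4. Phax, the adaptor that hands small nuclear RNAs to Xpo1, had the largest rise (3.07 ± 0.22; edgeR, adjusted p = 2.07e-06), and Thoc6, a subunit of the THO complex of mRNA export, the next (2.33 ± 0.23; edgeR, adjusted p = 1.65e-05). The largest falls were those of Nupl2, an FG protein of the cytoplasmic face (-3.48 ± 0.25; edgeR, adjusted p = 2.13e-06), and Pom121, a membrane nucleoporin (-2.52 ± 0.19; edgeR, adjusted p = 2.45e-06).

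The order of levels among members differed between genotypes. Per kilobase of transcript, the 5 highest in wild type were Ipo5, Ipo4, Nup205 (144 ± 3.11 CPM per kb), Xpo6 and Nup188 (120 ± 9.52), and the ranges of Xpo6 and Nup188 overlapped. In Stra8-deficient testes they were Nxf2, Nup88 (117 ± 0.75), Nup62 (113 ± 32.0), Nup93 (101 ± 18.2) and Nup205 (76.7 ± 17.8), and each overlapped the next below it apart from Nxf2. Ipo4 counts rest on a locus that overlaps another annotated one, so its rank is uncertain.

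In the authors' deposited table the log2 ratio had the same sign as here for all 49 tested members, and 20 were higher and 19 lower at a deposited false discovery rate under 0.05. For Nxf2 the authors' deposited table gives a log2 ratio of 4.31, for Nup210l -7.05 and for Nup98 -2.93. Both analyses use the same libraries, so this is not a second measurement.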

How the data were processed

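Polyadenylated RNA of 6 whole testes, 3 per genotype, was sequenced. TopHat, HTSeq, edgeR and build mm9 are named in the submitters' processing notes, without versions, settings or strand handling. What the authors deposited as counts are whole reads per gene symbol. The authors' deposited comparison holds log2 ratios and p-values per gene, per the file headers. Counters of reads outside genes (20.9% to 34.5% of reads) were left out. The third Stra8-deficient file lists 23285 symbols and the others 22055; the 21786 shared symbols (99.3% to 99.7% of gene reads) were used. No column was left unmatched.

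Genes kept by filterByExpr (15018) were compared with edgeR 4.0.16 in R 4.3.3 (TMM factors 0.796 to 1.27, glmQLFit with robust estimation, quasi-likelihood F test) and Benjamini-Hochberg adjustment; SE is the log2 fold change over the square root of F. The spread is shared by both genotypes although it differs between them. The labels describe separate males, and age follows genotype, so age and genotype cannot be told apart. Scripts were tested on simulated counts with equal spread in both genotypes and few changed genes, a setting unlike these data. Transcript lengths, chromosomes and shared words of 36 bases came from GENCODE M21 (GRCm38, 50 members matched), and promoter windows from RefSeq. No mm9 coordinates were used. Same-numbered libraries were not paired by the labels. A level per kilobase assumes the longest GENCODE coding transcript. A gene at 0 reads could still reach 0.243 to 0.447 CPM before TMM (3 reads; counting error only).

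Members were found by symbol, and members, role groups and lists were chosen with earlier results of these data known. Any member could be named; values in every library were given by rule for the called member with the largest change in each direction of each role group, for germ cell paralogs and for their partners, and for others chosen after their values were seen. Alternatives were RLE, upper-quartile and no scaling factors, DESeq2 1.42.0, no filter, no robust estimation, a replicate block, leaving out each library, and, chosen after seeing the data, members with few shared words only.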

Additional observations from a re-analysis of the deposited data

How the results depend on the processing

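The members called numbered 23 higher and 19 lower. Across leaving out each library in turn, 20 to 24 were higher and 18 to 21 lower, and the list of other transport genes gave 15 to 21 higher and 10 to 13 lower. With library size alone 12 members were lower. RLE factors gave 21 and 19, upper-quartile factors 24 and 18, DESeq2 22 and 19, and both the fit without a filter and that without robust estimation 23 and 19. Members with few shared words, chosen after seeing the data, gave 21 and 16. In the fits to all genes, the share of calls that were higher ran from 51.2% to 69.2% for members. For all genes it ran from 48.6% to 63.6%, and both shares were highest with library size alone. Of 49 tested members 32 kept direction and side of the threshold in each alternative. Signs turned only for members not called: with library size alone Ipo11 (0.50), Ipo9 (0.39), Nup62 (0.59), Nxt1 (0.38) and Tnpo2 (0.41); with upper-quartile factors Ipo11 (0.16), Ipo9 (0.0438), Nup62 (0.25), Nxt1 (0.0382) and Tnpo2 (0.0671); Nup62 without the second (0.0418) or the third (0.0784) and Tnpo1 without the second (-0.0735) Stra8-deficient library. Leaving out each library gave Nup62 -0.318 to 0.0784, Tnpo1 -0.0735 to 0.194, and a Kpna2 share difference of -0.00774 to 0.0982 percentage points. The difference in the share of Kpna2 turned to -0.00774 percentage points without the third Stra8-deficient library. The cause was not tested.

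Same-numbered libraries deviated with correlations of 0.0582, 0.0797 and -0.0404, so the numbers do not pair them. With the replicate block 22 members were higher and 19 lower, and Nup88 (0.47) was not called. Not every library correlated best with its own number. Depth limits Kpna2, Kpna7, Nup35 and Nxf7, with under 40 reads in any library.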
